A study of Mus musculus with 3 samples.

Results

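The genes followed here are 35 genes of glucose breakdown and of the response to low oxygen, read on 3 mouse arrays that set cells given pAsc (phospho-ascorbate, which supplies vitamin C) against untreated cells. They were chosen by gene name, and 60 of the 41174 probes on the array carry those names. The array names 27827 genes in all, and Pkm2 and Ero1l keep their older names from the array (now Pkm and Ero1a).

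Each array compared untreated RNA, labelled with the dye Cy3, with RNA of cells given 800 µM pAsc, labelled with Cy5. The T lineage cells grew from C57BL/6 bone marrow progenitors with the cytokines Flt3L and IL7 on OP9-DL1, stromal cells of mouse bone marrow origin made to display Dll1, a ligand of Notch. In 1 T cell culture pAsc was present for the final 24 h of 14 days, and in the other for the final 72 h of 17 days. The third array held OP9-DL1 cells alone, kept in continuous culture, labelled osteoblast and strain B6-C3Hf1, with or without pAsc for 24 h. Stromal cells were removed from the T cells only by letting them adhere briefly before RNA was taken, and the cells are an in vitro model in which stromal cells stay in contact with the T lineage cells until then. There was 1 array per comparison, with no repeat and no swap of the dyes. No value below therefore has a p-value or an error between cultures, a dye effect of a probe cannot be told apart from the treatment, and a difference of 2-fold is used as a rule of size.

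Glycolysis turns glucose into pyruvate in the cytosol, and lactate dehydrogenase and a lactate exporter carry the end product out of the cell when it is not burned in mitochondria. Hypoxia-inducible factors (HIFs) raise many genes of this pathway when oxygen is low, by binding short elements with the core ACGTG or GCGTG. When oxygen is present, prolyl hydroxylases that use iron, and for which ascorbate serves as a reducing cofactor, mark HIF alpha subunits for degradation. Dividing lymphocyte precursors also run a high rate of glycolysis.

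In stromal cells, 2 members were at least 2-fold lower with pAsc, Ankrd37 and Ndrg1, and none was at least 2-fold higher. In T cells at 24 h no member was 2-fold apart, and at 72 h Aldoa and Ldha were at least 2-fold higher. The median log2 ratio of treated over untreated cells over the measured members was -0.11 in stromal cells (32 genes), 0.18 for the 24-h T cells (34 genes) and 0.19 for the 72-h T cells (34 genes). Over all genes measured it was 0.02, 0.02 and 0.01. The sign of the stromal median depends on the correction for brightness, since centring each array on its measured genes alone gave 0.20 there. A gene counts as measured where its brightest probe was well above background in both channels, and that probe stands for the gene.

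The elements are shown first, since some genes lower in treated stromal cells can be set beside the members that were highest there. The lower genes shown were not taken strictly by rank. Eno1 (-0.67) and Pfkl (-0.53) had lower ratios than Bnip3 (-0.47) and are not shown. The sequences are the 250 bases before the RefSeq transcript start on GRCm38.p6, read 5′ to 3′ on the strand of the gene. Capitals mark each ACGTG or GCGTG on either strand, written CACGT or CACGC where the element lies on the other strand, with overlapping matches joined. Ankrd37 (chr8:45999851-46000100, minus strand), Pdk1 (chr2:71872974-71873223, plus strand) and Bnip3 (chr7:138909507-138909756, minus strand) had lower signals in treated stromal cells. Adm (chr7:110627407-110627656, plus strand) and Pfkfb4 (chr9:108991652-108991901, plus strand) had the highest ratios there. Slc16a3 (chr11:120948817-120949066, plus strand) is the member whose ratio was higher by the most at 72 h than at 24 h in T cells.
Ankrd37: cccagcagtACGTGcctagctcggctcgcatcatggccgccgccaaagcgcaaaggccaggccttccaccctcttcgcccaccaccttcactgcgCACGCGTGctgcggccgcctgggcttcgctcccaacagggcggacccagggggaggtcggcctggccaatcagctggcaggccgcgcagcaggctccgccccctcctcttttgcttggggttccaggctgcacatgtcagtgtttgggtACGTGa
Pdk1: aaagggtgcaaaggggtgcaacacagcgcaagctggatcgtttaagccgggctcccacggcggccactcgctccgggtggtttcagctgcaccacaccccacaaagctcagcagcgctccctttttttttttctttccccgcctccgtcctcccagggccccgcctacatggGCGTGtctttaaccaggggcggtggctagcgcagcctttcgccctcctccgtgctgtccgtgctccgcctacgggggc
Bnip3: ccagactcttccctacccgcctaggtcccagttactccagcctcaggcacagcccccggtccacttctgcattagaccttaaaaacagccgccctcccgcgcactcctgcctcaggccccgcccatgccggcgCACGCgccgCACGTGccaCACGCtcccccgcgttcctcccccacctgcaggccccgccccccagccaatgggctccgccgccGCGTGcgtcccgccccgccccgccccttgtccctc
Adm: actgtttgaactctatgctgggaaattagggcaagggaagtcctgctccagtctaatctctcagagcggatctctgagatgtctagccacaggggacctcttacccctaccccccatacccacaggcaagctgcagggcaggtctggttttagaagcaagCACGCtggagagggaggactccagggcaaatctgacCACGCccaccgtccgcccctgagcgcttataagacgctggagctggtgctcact
Pfkfb4: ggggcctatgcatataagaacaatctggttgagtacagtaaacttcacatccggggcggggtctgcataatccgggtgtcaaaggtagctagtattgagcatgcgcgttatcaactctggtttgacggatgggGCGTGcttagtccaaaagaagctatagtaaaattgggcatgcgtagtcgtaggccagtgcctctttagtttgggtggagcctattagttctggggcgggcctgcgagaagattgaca
Slc16a3: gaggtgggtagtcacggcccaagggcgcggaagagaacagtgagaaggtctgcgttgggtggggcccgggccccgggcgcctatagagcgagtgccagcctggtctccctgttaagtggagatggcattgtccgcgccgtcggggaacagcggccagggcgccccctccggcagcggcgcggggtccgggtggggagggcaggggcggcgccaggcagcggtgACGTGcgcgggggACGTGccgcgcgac

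Ankrd37 has 3 marked runs, Bnip3 4, Adm and Slc16a3 2 each, and Pdk1 and Pfkfb4 1 each, so members on both sides of 0 hold them. A second promoter of Pdk1, not shown, has 0. The table of promoters had an entry for 34 of the 35 members, all but Ndrg1, with 50 promoters in all. At least 1 element lay in 37 of those 50 promoters (74.0%), against 12679 of all 32851 promoters (38.6%). By gene, 28 of the 34 members (82.4%) had an element in at least 1 promoter, against 11226 of 27025 genes in the table (41.5%), and Car12, Eno2, Gbe1, Gpi1, Gys1 and Tpi1 had none in these windows. Many members were listed as genes of the low-oxygen response, so the higher share describes the list and is not a result of the arrays. A gene with more promoters also has more windows in which a match can fall. A match of 5 letters is a description of the sequence and not a bound site.

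Before the results, 4 features of the arrays bear on them. Very bright probes kept a positive ratio after normalization: genes outside the members with a mean log2 brightness of 16 to 17 had a median ratio of 0.52 for stromal cells, 0.58 for the 24-h T cells and 0.31 for the 72-h T cells. With centring on measured genes in place of that normalization, the stromal ratios of the bright members Aldoa, Pgk1, Gapdh, Tpi1 and Ddit4, given below as negative, were 0.68, 0.60, 0.56, 0.53 and 0.48. Members were brighter than most genes, with 5 of 32, 6 of 34 and 7 of 34 above a log2 brightness of 15 (15.6%, 17.6% and 20.6%), against 2.74%, 1.89% and 1.99% of all measured genes. The spread between probes of 1 gene was 0.18, 0.14 and 0.18 (SD, log2) in the order above. It was pooled over all measured genes with more than 1 probe, and it measures probes, not cultures. Probes of a member differed by up to 0.92 (Ldha at 72 h). No member spot was saturated, and 9 carried an outlier flag and were left out. These include the only spot of the brightest Ldha probe at 24 h and that of the brightest Pkm2 probe at 72 h, so neither gene has its main value there.

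The labelled cell types were checked against marker lists. Of 15 T lineage markers, 14 and 15 were measured on the T cell arrays, Thy1 not being well above background at 24 h, and 3 on the stromal array (Cd3e, Gata3 and Notch1). Of 25 stromal markers, all 25 were measured in stromal cells and 23 on each T cell array, where Dcn and, at 24 h, Lum and, at 72 h, Serpinh1 were not measured in both channels. The stromal markers were higher in treated T cells: 23 of 23 lay above 0 at 24 h with a median of 0.74, and 19 of 23 at 72 h with a median of 0.48. Their summed log2 level was 17.31 untreated and 18.11 treated at 24 h, 18.62 and 19.23 at 72 h, and 19.52 and 19.92 in stromal cells. In RNA from a mixed culture, more cells of a type and more RNA per cell cannot be told apart.

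**Figure D1:**
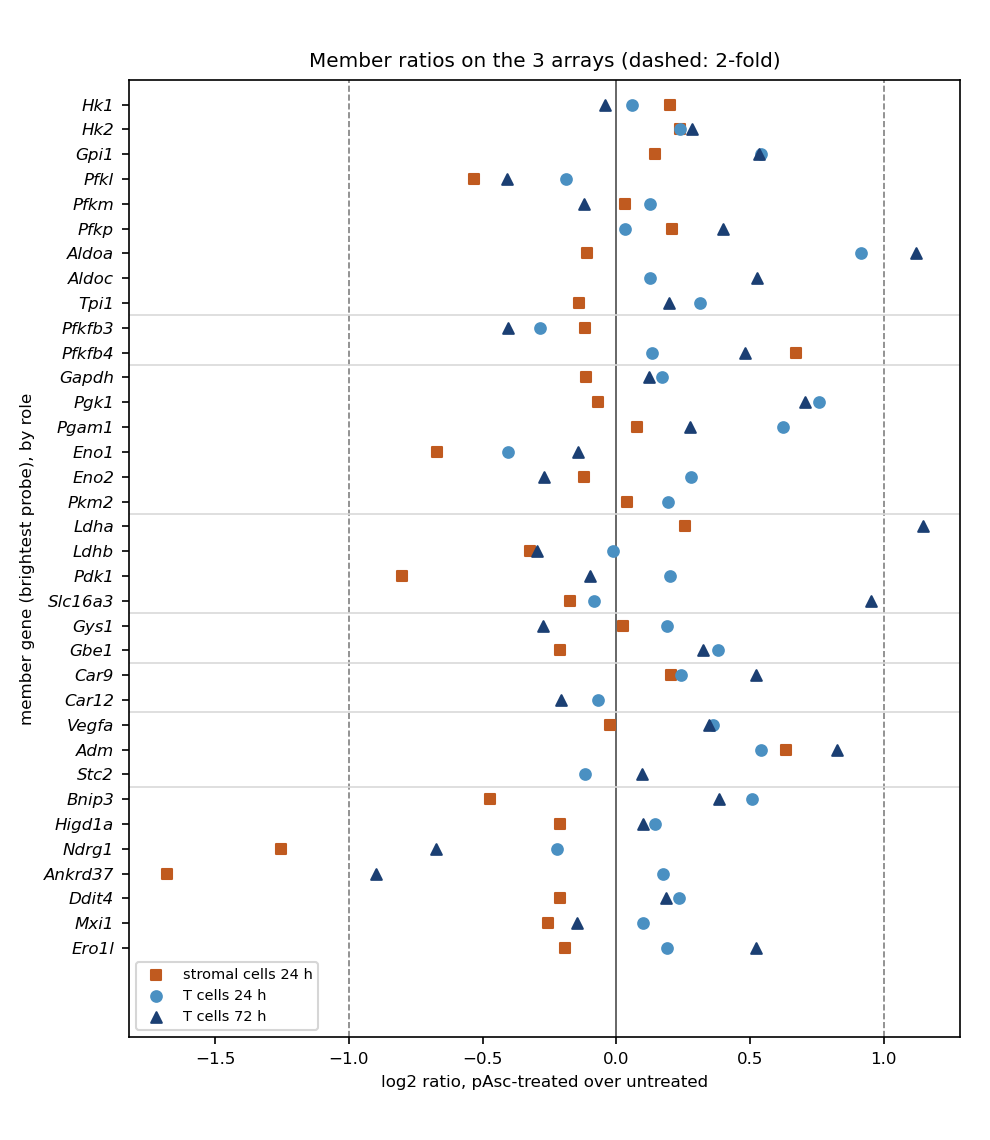
Log2 ratio of pAsc-treated over untreated signal (x axis) for the brightest probe of each member (y axis, grouped by role from upper glycolysis at the top to the low-oxygen stress genes at the bottom), with squares for stromal cells, circles for T cells at 24 h and triangles for T cells at 72 h, 1 array each. Ankrd37 and Ndrg1 lie left of the 2-fold line in stromal cells, and Aldoa and Ldha lie right of it in T cells at 72 h.

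The members that act on mitochondria, stress and growth under low oxygen were all lower in treated stromal cells. The ratios of these 7 genes ran from -1.68 to -0.19 with a median of -0.26, while 6 of 7 lay above 0 on the 24-h T cell array (median 0.17) and 4 of 7 on the 72-h one (median 0.10). All 7 stayed below 0 in stromal cells under the deposited log ratio, each background correction and the brightness-matched values. Where each array was only centred on the median of its measured genes, with no correction for brightness, 5 of 7 did. With centring on all probes 2 of 7 did, and their median was 0.43 where that of all measured genes was 0.65.

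Ankrd37 encodes an ankyrin-repeat protein and is a known HIF target. Its log2 level was 9.23 in untreated and 7.55 in treated stromal cells, 10.31 and 10.49 on the 24-h T cell array, and 9.38 and 8.48 on the 72-h one. The treated sample was thus the dimmer on the stromal and the 72-h T cell array and near its control on the 24-h T cell array. The log2 ratios were -1.68, 0.17 and -0.90, and the stromal difference was 3.21-fold. Genes 2-fold or more lower made up 0.118% of the 14367 genes measured in stromal cells, beside 2 of the 32 members. The Ankrd37 ratio in stromal cells ran from -2.34 to -1.27 over 9 ways of processing, and was past 2-fold in 9 of 9. Ankrd37 has 1 measured probe, so the median over probes and no brightness filter return the main value by construction. At 72 h the Ankrd37 ratio was -1.06 in the deposited log ratio, which puts it past 2-fold there.

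Ndrg1, a growth and stress protein raised under low oxygen, had the next lowest ratio. Its log2 level was 11.29 in untreated and 10.04 in treated stromal cells, 14.11 and 13.89 on the 24-h T cell array, and 13.34 and 12.67 on the 72-h one. Treated cells were dimmer on all 3 arrays. The ratios were -1.25, -0.22 and -0.68. The stromal one passed 2-fold in 8 of 9 ways of processing, the exception being centring on all probes at -0.48. As for Ankrd37, the outcomes of the median over probes and no brightness filter were fixed in advance. With centring on measured genes the T cell ratio at 24 h was 0.12.

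Bnip3, a mitochondrial protein that promotes removal of mitochondria, went from 11.40 to 10.93 in stromal cells and from 13.36 to 13.86 and 12.56 to 12.95 in the T cells at 24 and 72 h. Its ratios of -0.47, 0.51 and 0.38 thus had opposite signs in the stromal and T cell cultures, none of them 2-fold. Ddit4, an inhibitor of mTOR signalling, is the member of this group above a brightness of 15, in stromal cells. It had log2 levels of 15.27 and 15.06 in untreated and treated stromal cells, 13.86 and 14.10 at 24 h, and 14.05 and 14.24 at 72 h. The ratios of -0.21, 0.23 and 0.18 are small. Ero1l, an oxidase of the endoplasmic reticulum, was the highest of the group at 72 h (0.52) after 0.19 at 24 h and -0.19 in stromal cells. Higd1a, a respiratory chain factor, and Mxi1, a MYC antagonist, lay between -0.26 and 0.14 on the arrays.

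The genes that set the fate of pyruvate and lactate held 1 call past 2-fold, Ldha at 72 h, on 1 of its 2 probes. Their medians were -0.25 in stromal cells, -0.01 on the 24-h T cell array (3 measured) and 0.43 on the 72-h one. Pdk1, the kinase that shuts off pyruvate dehydrogenase, went from 8.54 to 7.74 in stromal cells, from 12.38 to 12.58 in T cells at 24 h and from 11.43 to 11.33 at 72 h. It was lower in treated stromal cells and close to its control in both T cell cultures. Its ratios were -0.80, 0.20 and -0.10, and a second probe gave -0.99, 0.27 and 0.08. Both probes passed 2-fold in stromal cells in the deposited log ratio, at -1.31 and -1.94. At 1.5-fold, 4 of 32 members were lower in stromal cells, beside 2.78% of all genes: Ankrd37, Ndrg1, Pdk1 and Eno1. At the same size 2 were higher, Pfkfb4 and Adm, beside 2.20%.

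Ldha makes lactate from pyruvate, and its probes disagreed. The brightest probe had a log2 level of 15.19 in untreated and 15.44 in treated stromal cells and 15.30 and 16.44 in T cells at 72 h, with no usable spot at 24 h. The other probe went from 14.26 to 13.94 in stromal cells, from 15.57 to 15.84 in T cells at 24 h and from 15.09 to 15.31 at 72 h. The first probe thus set treated T cells at 72 h far above untreated ones, and the other probe did not. Their ratios at 72 h were 1.14 and 0.22, and in stromal cells 0.26 and -0.32. The disagreeing second probe lies on mm9 chr7:54109426-54110355, a span longer than its 60 bases, and its sequence is shown to identify it.
Ldha second probe: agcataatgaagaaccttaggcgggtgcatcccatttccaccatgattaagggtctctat

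Genes at least 2-fold higher in T cells at 72 h made up 0.227% of the 16315 measured, beside 2 of 34 members, and those at least 2-fold lower 0.380%, beside 0 members. The Ldha call held in 6 of 9 ways of processing, counting the main one and no brightness filter, which cannot change it. The ratio was 0.86 in the deposited log ratio, 0.98 with the running median over brightness subtracted, and 0.68 as the median over both probes. Slc16a3 exports lactate. It went from 7.42 to 7.25 in stromal cells, from 12.60 to 12.52 in T cells at 24 h and from 10.12 to 11.08 at 72 h. The treated T cells at 72 h thus stood above their control and below both T cell samples of the earlier array. Its ratios were -0.17, -0.08 and 0.95. Ldhb, the form of lactate dehydrogenase that favours pyruvate, had ratios of -0.32, -0.01 and -0.30.

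In upper glycolysis, treated T cells had higher signals for 8 of 9 members at 24 h and 6 of 9 at 72 h, with medians of 0.13 and 0.28, and the stromal median was 0.09 over 8 measured members. With the median over the probes of a gene, the counts were 7 of 9 at 24 h and 6 of 9 at 72 h. Aldoa, the aldolase that splits fructose bisphosphate, had the highest ratio. Its brightest probe had a log2 level of 15.99 in untreated and 15.88 in treated stromal cells, 16.45 and 17.36 on the 24-h T cell array, and 15.97 and 17.09 on the 72-h one. Treated T cells were brighter at both times and stromal cells were not. The ratios were -0.11, 0.91 and 1.12, and the second probe gave -0.26, 0.65 and 0.73. Against genes of the same brightness step, the excess at 72 h was 0.81, and at 24 h it was 0.33. In stromal cells the value lay -0.63 from the median of its step. The 2-fold call at 72 h held in 6 of 9 ways of processing, again counting the main one and no brightness filter. The ratio fell short at 0.81 in the deposited log ratio, 0.92 with the running median subtracted and 0.93 as the median over probes.

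Gpi1, the isomerase after hexokinase, is 1 of 3 members with a probe printed in 10 spots. Its log2 level was 14.66 in untreated and 14.81 in treated stromal cells, 15.79 and 16.33 on the 24-h T cell array, and 15.43 and 15.97 on the 72-h one. The ratios were 0.14 ± 0.05, 0.54 ± 0.06 and 0.53 ± 0.05 (SD over 10 spots of 1 array). The spots of 1 array thus differ far less than the T cell ratios do from 0. At 24 h its brightness of 16.03 lay at the lower edge of the step from 16 to 17. The ratio there was -0.04 from the median of that step. At 72 h it lay 0.43 above the median of its own step, from 15 to 16. With the running median over brightness subtracted, the ratios were 0.23 at 24 h and 0.38 at 72 h. A second, dim probe of Gpi1 gave 0.17, -0.14 and -0.05. Tpi1, triose phosphate isomerase, went from 14.97 to 14.83 in stromal cells, from 15.62 to 15.94 at 24 h and from 15.14 to 15.33 at 72 h, with ratios of -0.14, 0.31 and 0.20.

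Pfkl, the liver form of phosphofructokinase, was the lowest of this group on every array, at -0.53, -0.19 and -0.41. Of the muscle and platelet forms, Pfkm had 0.03, 0.13 and -0.12, and Pfkp 0.21, 0.03 and 0.40. The measured probes of Pfkp ran from -0.27 to 0.21 in stromal cells and from -0.03 to 0.40 at 72 h. The hexokinases Hk1 and Hk2, which trap glucose in the cell, lay between -0.04 and 0.28 by their brightest probes. The 5 measured probes of Hk1 ran from -0.41 to 0.06 at 24 h and from -0.37 to -0.04 at 72 h. Aldoc, the brain aldolase, was above background in 1 of the 2 stromal channels and had ratios of 0.12 and 0.53 in T cells. Of the bifunctional enzymes that set the level of the phosphofructokinase activator, Pfkfb4 had the highest stromal ratio of all members, 0.67, followed by 0.13 and 0.48 in T cells. Pfkfb3 lay below 0 on each array, at -0.12, -0.29 and -0.40.

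**Figure D2:**
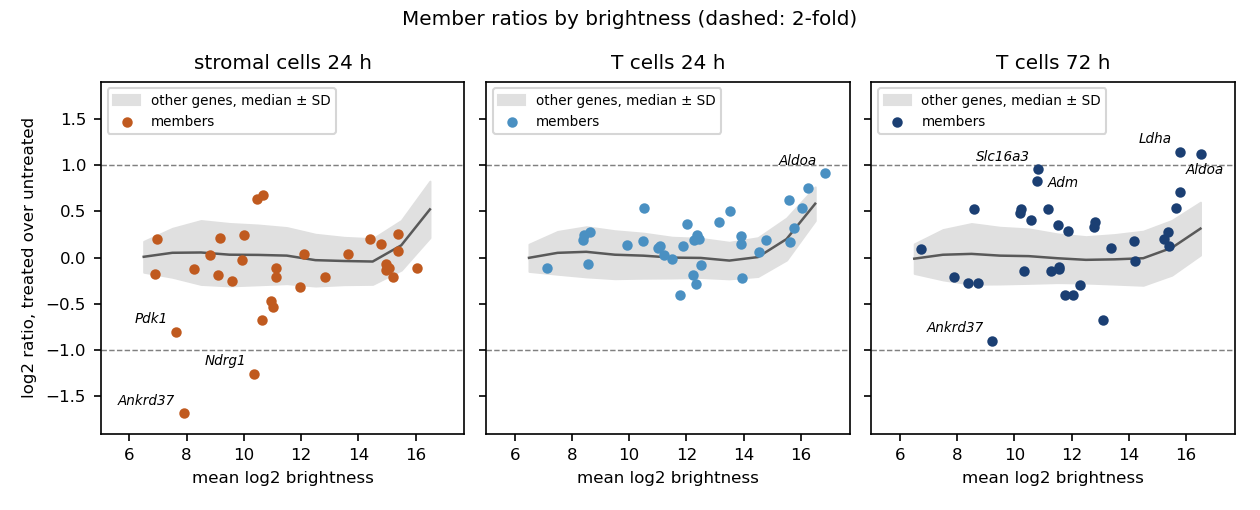
Log2 ratio of treated over untreated (y axis) against mean log2 brightness (x axis) for the measured members (points), with the median of all other genes in steps of 1 log2 unit as a line and its SD as a grey band, 1 panel per array. The line is drawn through the middle of each step and bends upward above 15 on each array. Ankrd37 and Ndrg1 in stromal cells lie far below it at middle brightness. Gpi1 in T cells at 24 h, at a brightness of 16.03, lies -0.04 from the median of its step.

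In lower glycolysis the ratios lay above 0 in T cells for 5 of 6 members at 24 h and 3 of 5 at 72 h. These counts depend on the processing. They were 3 of 6 and 2 of 5 in the deposited log ratio. With the running median over brightness subtracted they were 4 of 6 and 2 of 5. Centring on measured probes gave 5 of 6 and 4 of 5. Pgk1 makes the first ATP of the pathway. Its log2 level was 14.94 in untreated and 14.88 in treated stromal cells, 15.89 and 16.65 on the 24-h T cell array, and 15.52 and 16.22 on the 72-h one. The treated T cells were brighter at both times. The ratios were -0.07 ± 0.10, 0.76 ± 0.09 and 0.71 ± 0.06 (SD over 10, 8 and 10 spots of 1 array), or -0.03, 0.17 and 0.60 from the median of genes of like brightness. A second probe gave -0.12, 0.63 and 0.60.

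Pgam1, phosphoglycerate mutase, went from 15.28 to 15.35 in stromal cells, from 15.34 to 15.96 in T cells at 24 h and from 15.27 to 15.55 at 72 h. It was 0.62 higher at 24 h and 0.27 higher at 72 h, and 0.08 in stromal cells. Gapdh, the dehydrogenase of the pathway, had a log2 level of 15.09 and 14.97 in untreated and treated stromal cells, 15.59 and 15.76 at 24 h, and 15.41 and 15.53 at 72 h. Its ratios of -0.11, 0.17 and 0.12 changed sign at 24 h and 72 h in the deposited log ratio, to -0.13 and -0.06. Eno1, the common enolase, was the lowest of this group on both 24-h arrays, at -0.67 and -0.41, and -0.14 at 72 h. Eno2, the neuronal form, had -0.12, 0.28 and -0.27, and both of its probes gave those signs. Pkm2, pyruvate kinase, had 0.04 and 0.19 in stromal cells and at 24 h, and its next brightest probe -0.05 at 72 h. Its measured probes ran from -0.17 to 0.04 in stromal cells, from -0.03 to 0.27 at 24 h and from -0.33 to -0.05 at 72 h.

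At 24 h, 0 of 34 members were 2-fold higher or lower in T cells, beside 0.312% and 0.0118% of 17009 genes. At 1.5-fold 3 were higher (Aldoa, Pgk1 and Pgam1), beside 3.19%, and 0 lower, beside 0.229%. At 72 h 5 were higher at 1.5-fold (Ldha, Aldoa, Slc16a3, Adm and Pgk1), beside 1.93%, and 2 lower (Ankrd37 and Ndrg1), beside 1.93%. In stromal cells genes 2-fold higher made up 0.432%, beside 0 members. Aldoa, Pgk1, Pgam1 and Ldha lie among the brightest members, whose like-bright neighbours were also shifted.

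The secreted signals were higher in treated cells apart from Vegfa in stromal cells and Stc2 at 24 h. Adm encodes adrenomedullin, a vessel-dilating peptide. It went from 10.43 to 11.07 in stromal cells, from 10.18 to 10.71 at 24 h and from 10.14 to 10.96 at 72 h, and so was higher in the treated sample of every array. Its ratios were 0.64, 0.54 and 0.83, none 2-fold, at a middle brightness where other genes had medians near 0. Vegfa, the vessel growth factor, had -0.02, 0.36 and 0.35, and its probe of 10 spots gave -0.04, 0.19 and 0.29. All 4 of its probes were measured in T cells, and they ran from -0.004 to 0.36 at 24 h and from -0.07 to 0.35 at 72 h. Stc2, a stanniocalcin, was not well above background in stromal cells and had -0.12 and 0.10 in T cells.

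Of the carbonic anhydrases, which balance acid outside the cell, Car9 was higher on each array at 0.21, 0.24 and 0.52, and Car12 had -0.07 and -0.21 in T cells and was not above background in stromal cells. Of the glycogen enzymes, Gbe1, which adds branches, had -0.21, 0.38 and 0.33. Gys1, the muscle glycogen synthase, had 0.02, 0.19 and -0.28. Each role group thus held members on both sides of 0 on at least 1 array.

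**Figure D3:**
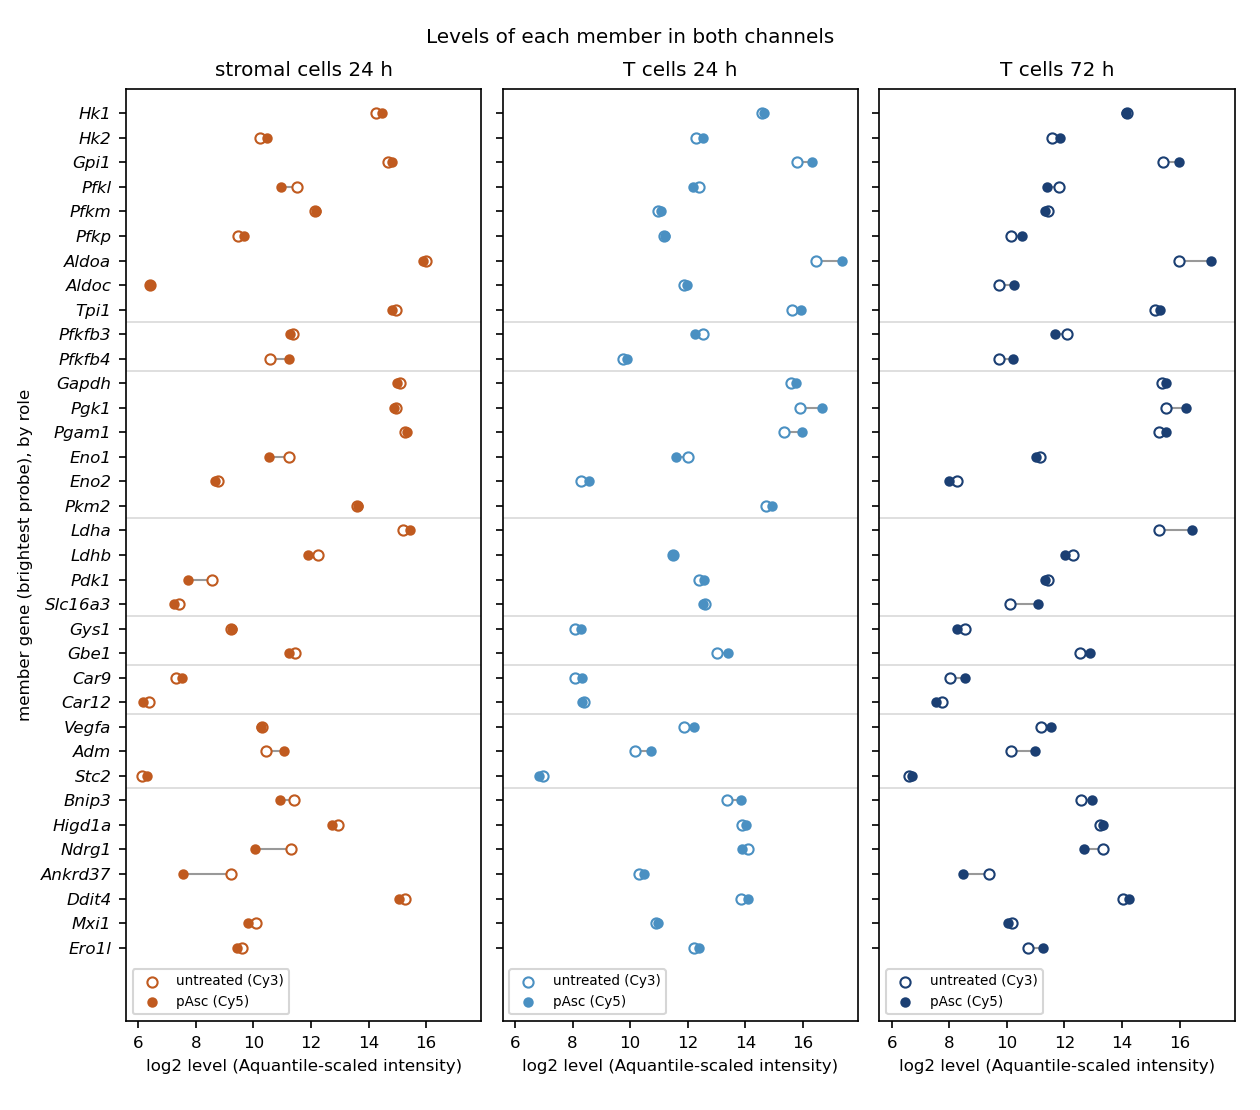
Log2 level (x axis, intensity scaled alike in all channels) of each member's brightest probe (y axis, by role) in untreated cells (open circles, Cy3) and treated cells (filled circles, Cy5), with 1 panel per array; levels are to be compared along a row only. Slc16a3, Aldoc and Pdk1 sit far to the left in stromal cells, and Ldha at 24 h and Pkm2 at 72 h have no points because their only spot was flagged.

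Setting the arrays beside each other cancels a dye effect that a probe shows on every array. These differences are of log2 ratios, and the ones against T cells at 24 h share that array. Between stromal cells and T cells at 24 h the members had a median difference of -0.35, against -0.03 for all genes, with 25 of 31 members below 0. Ankrd37 (-1.86), Ndrg1 (-1.03) and Aldoa (-1.02) were lower in stromal cells by at least 1, beside 1.37% of 13758 genes, and 0 were higher, beside 0.378%. Pdk1 (-0.998) and Bnip3 (-0.98) came next. The Aldoa ratio itself was near 0 in stromal cells and high in T cells, while Ankrd37 and Ndrg1 were low in stromal cells. Against genes of like brightness, Aldoa lay at -0.63 in stromal cells and at 0.33 in T cells at 24 h.

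Against T cells at 72 h the stromal median was -0.32, with 25 of 31 members below 0 and 0.00 for all genes. Aldoa (-1.23) and Slc16a3 (-1.13) were lower by at least 1, beside 0.473% of 13963 genes, and 0 were higher, beside 0.630%. Between the T cell arrays, which come from separate cultures with their own controls, the median was -0.05 over 33 members. Slc16a3 was 1.04 higher at 72 h and Ankrd37 differed by -1.07, beside 0.190% and 0.361% of 15771 genes. The other members differed by less than 1 between the T cell cultures.

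In the untreated cells most members were brighter in T cells than in stroma. On the scaled log2 level of the Cy3 channel, the stromal value minus that of T cells on day 14 had a median of -0.91 over 34 members and 0.09 over all genes. At least 2-fold lower in stromal cells were 15 members, beside 18.0% of 17662 genes, and 3 were at least 2-fold higher, beside 20.9%. Aldoc was at least 43.5-fold lower, at 6.42 and not well above background in stromal cells against 11.86. Slc16a3 followed at 7.42 against 12.60, then Pdk1 at 8.54 against 12.38 and Ndrg1 at 11.29 against 14.11. Those past 2-fold higher in stromal cells were Ddit4 (1.41), Pfkm (1.19) and Gys1 (1.14). The smallest differences were those of Pgam1 (-0.06), Adm (0.26), Hk1 (-0.32) and Aldoa (-0.46).

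Untreated T cells on day 17 were dimmer than on day 14 for 29 of 33 members, with a median of -0.48 against -0.02 for all genes. At least 2-fold dimmer were 4 members, beside 3.41% of 17617 genes: Slc16a3 (12.60 to 10.12), Aldoc (11.86 to 9.73), Ero1l (12.22 to 10.72) and Pfkp (11.17 to 10.14). None was 2-fold brighter, beside 7.03%. Ldhb had the largest difference upward, from 11.49 to 12.30, and Pfkfb4, Adm, Eno2 and Car9 differed by less than 0.1. Slc16a3, Aldoc, Ero1l and Pfkp, the 4 that were 2-fold dimmer on day 17, had treated over untreated ratios of 0.95, 0.53, 0.52 and 0.40 at 72 h. Those numbers share the untreated day-17 channel, so the 2 sets of values are not independent. The summed log2 level of the stromal markers in untreated T cells was 17.31 on day 14 and 18.62 on day 17, and all 4 of these members were at least 2-fold dimmer in untreated stromal cells than in T cells on day 14. The part of the stromal cells in the day-17 levels was not tested.

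The stromal markers had medians above 0 in both treated T cell cultures, and the member ratios are given here by their level in stroma. At 24 h the 15 members whose untreated stromal level was at least 2-fold below the untreated level on that T cell array had a median ratio of 0.19, with 11 above 0, and the other 19 had 0.17, with 15 above 0. At 72 h the 9 such members had a median of 0.33, with 6 above 0, and the other 25 had 0.12, with 15 above 0. The untreated T cell level enters both this split and the ratios, so they are not independent. The adipocyte markers were also higher at 24 h (median 0.72, 4 of 5 above 0), and at 72 h the NK markers had a median of -0.74, with 5 of 5 below 0. The B lineage markers had -0.62 at 72 h, with 5 of 6 measured below 0 and 3 at least 2-fold lower. The T lineage markers had -0.11, with 11 of 15 below 0. The myeloid and mast cell markers went both ways, with 3 of 5 measured below 0 and a median of -1.27, as did the erythroid markers, with 1 of 2. The part of those cells in the member ratios was not tested.

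The wider pathway lists gave few large differences. Another list held 41 genes of the low-oxygen response, among them genes for HIF subunits and their control, such as Hif1a, Arnt and Vhl. Of the 41, 36 were measured in stromal cells with a median of -0.12, and 39 in each T cell culture with medians of 0.17 and 0.09. None of the 36 passed 2-fold in stromal cells. Lowest there were Hif1a (-0.85), the subunit that HIF hydroxylases act on, and P4ha2 (-0.73) and P4ha1 (-0.64), catalytic subunits of collagen prolyl hydroxylase. Highest were Tmem45a (0.60), Bhlhe40 (0.55) and Edn1 (0.48). In T cells at 24 h 2 of the 39 were at least 2-fold higher, beside 0.312% of all genes, and Hmox1 (1.13), which breaks down heme, was 1 of them. Lox (0.84), which crosslinks collagen, was the highest of those short of 2-fold. Tfrc, the transferrin receptor, was lowest in T cells at both times, at -0.51 and -0.996, the latter just short of 2-fold. Edn1 (0.78) and Lox (0.78) were among the highest at 72 h, and Trf (-0.54) and Zfp395 (-0.42) followed Tfrc.

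Of 24 other glycolysis and glucose uptake genes, 14, 18 and 19 were measured, with medians of 0.11, 0.03 and 0.03 and none past 2-fold. Slc2a1, the main glucose carrier, was among the lowest in stromal cells (-0.27) and the highest at 24 h (0.61). Pdk4, a relative of Pdk1, was lowest in stromal cells at -0.42 and stood at 0.44 at 24 h. At 72 h Pygl, which breaks down glycogen, was highest (0.75) and Gyg, which primes it, lowest (-0.66).

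The 18 mitochondrial energy enzymes had medians of 0.11, 0.06 and 0.05 with none past 2-fold, the highest being Ogdh (0.67) in stromal cells, Atp5b (0.37) at 24 h and Idh3a (0.60) at 72 h. The lowest in stromal cells was Cycs (-0.36). The 13 genes of other glucose branches had medians of 0.04, 0.07 and 0.00. Among them Phgdh, the first enzyme of serine synthesis, was lowest in T cells at both times, at -0.36 and -0.77, and Gpd1 was highest in stromal cells (0.85) and at 72 h (0.64). The members' medians in T cells, 0.18 and 0.19, lay nearest those of the other low-oxygen genes.

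**Figure D4:**
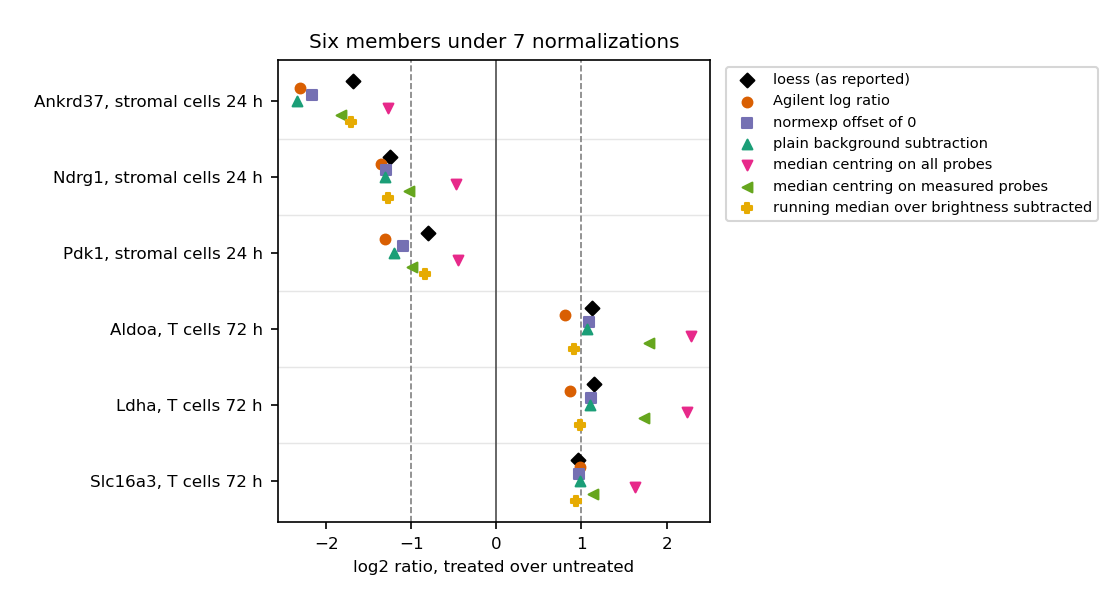
Log2 ratio of treated over untreated (x axis) of 6 members (y axis, with the array) under 7 normalizations, 1 marker shape each. Ankrd37 lies past 2-fold under all 7, Ndrg1 under all but centring on all probes, and Aldoa and Ldha fall short of 2-fold in the deposited Agilent log ratio and with the running median over brightness subtracted.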

How the data were processed

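Total RNA of 3 treated and 3 untreated cultures was measured on 3 Agilent arrays of 2 colours. The authors read spot and background intensity values with Agilent Feature Extraction (version 10.5.1.1 in the file headers) and deposited them without normalization. The deposited log10 ratio of Cy5 over Cy3 was turned into log2 and used as an alternative; per the file headers the background was subtracted, trends across the array removed and the dyes balanced by linear and LOWESS fits.

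Backgrounds were corrected with normexp (offset 50) and ratios normalized by loess (span 0.3) in limma 3.58.1 (R 4.3.3), with control and outlier-flagged spots at weight 0. Loess sets the bulk of genes near 0, so a shift of most genes would not be seen. Levels across arrays used Aquantile scaling. Spots of a probe were averaged. A probe counted as measured if a share of 0.5 or more of its spots carried the well-above-background flag. Probe positions are on mm9, per the file headers, and promoters come from RefSeq, GRCm38.p6.

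Both channels are given for members past 2-fold on any array, with a log2 brightness above 15 or with probes that differ by more than 0.5; others by range, with the highest and lowest of each role group. The members, lists and rules were chosen with earlier results of these data known. Precision is limited by 1 array per comparison. Alternatives were the deposited ratio, an offset of 0, plain subtraction, median centring, a running median over 501 probes, the median over probes, no brightness filter and a 1.5-fold rule. Without the brightness filter, a gene whose brightest probe was measured keeps its main value. So does a gene with 1 measured probe under the median over probes. Some genes of the wider lists are counted in their medians but not reported by name here.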

Additional observations from a re-analysis of the deposited data

Results flagged for a closer look

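Ankrd37 had ratios of opposite sign in the stromal and T cell cultures after 24 h, -1.68 in stromal cells and 0.17, near its control, in T cells, a difference of -1.86. The signs of Aldoa also differed between stromal cells, at -0.11 and near its control, and T cells at 72 h, at 1.12, a difference of -1.23. With 1 array for each, these differences were not tested. The Aldoa value in stromal cells lay above 0 under median centring on measured probes, at 0.68, where the 72-h T cell value was 1.79, so the opposite signs rest on the correction for brightness.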

How the results depend on the processing

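No paired analysis was possible because each comparison had 1 array, which also leaves no replicate to leave out. Median centring on all probes, which keeps the trend with brightness, put the median of all measured genes at 0.65 (stromal cells), 0.42 (24-h T cells) and 0.55 (72-h T cells). Under it the member medians were 0.75, 0.73 and 1.04, with 12, 9 and 18 members at least 2-fold higher and 1 lower in stromal cells, and the median difference of stromal cells from T cells at 24 h was -0.10. Centring on measured probes gave medians of 0.20, 0.35 and 0.55, with 4 and 6 members 2-fold higher in T cells at 24 and 72 h and 1 member, not 2, apart by at least 1 between the T cell arrays. The stromal median of the members thus changed sign with either centring. At 72 h, 0 members were 2-fold higher with the deposited log ratio, with the running median subtracted or with the median over probes. There, 1 was 2-fold lower (Ankrd37) with the deposited log ratio, an offset of 0 or plain subtraction. At 1.5-fold, 2 members were higher and 4 lower in stromal cells, 3 higher at 24 h, and 5 higher and 2 lower at 72 h. Leaving out members at least 2-fold brighter in stroma, an alternative chosen after seeing the data, gave T cell medians of 0.17 and 0.20. The causes were not tested beyond what each setting leaves out. Ratios of 1 array carry no error between cultures, and Car12, Stc2 and Aldoc were too dim in stromal cells for a ratio.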
